A study of Caenorhabditis elegans with 14 samples.

Results

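The *C. elegans* genome holds a large family of insulin-like peptide genes, and the count files listed 40 of them among 42048 genes: every row named *ins-* with a number, plus *daf-28*. The peptides are small secreted ligands, made mostly by neurons and the intestine, that act on the insulin receptor homolog DAF-2. Ligands that activate the receptor restrain the transcription factor DAF-16 and favour growth and reproduction, whereas ligands that oppose it favour dauer arrest and stress resistance. In young larvae this choice is read from food and crowding, and several family members were first known from it.

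RNA-seq was performed on whole, synchronized larvae of strains lacking either or both IκB homologs, NFKI-1 (gene C33A11.1) and IKB-1. At L4 (36 h of growth at 25 °C) the strains were *nfki-1(cer1)*, *ikb-1(nr2027)*, a double mutant carrying both of these alleles, and WT, which was N2 (Bristol). At L1 (5 h of feeding, then 3 h without food, also at 25 °C) they were *nfki-1(cer2)*, *ikb-1(cer9)* and WT. Each strain and stage had 2 count files labelled as replicates, so there were 14 files in 7 groups. The alleles of the L4 and L1 mutants differ, so allele and stage cannot be told apart in a mutant, and each mutant was a single strain. The labels name no separate cultures behind the replicates, and p-values measure only the spread between these samples.

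Reads on genes came to 19735958 to 22373456 per file at L4 and 57740500 to 63394016 per library at L1. Within an L4 strain, the 2 files differed by less than sampling noise once a difference shared by all 4 strains was removed (0.616 to 0.676 times the counting variance, against 10.3 to 20.6 times between L1 replicates). They were therefore counted as 1 sample per strain, and the spread used in L4 tests came from the L1 replicates. The targeted genes were low where the labels place a mutation. C33A11.1 had 7.20 and 7.97 CPM (counts scaled to library size with the TMM factor) in *nfki-1(cer1)* L4 larvae, against 42.1 and 42.7 CPM in WT. *ikb-1* had 3.48 and 4.05 CPM in *ikb-1(nr2027)*, against 13.3 and 13.6 CPM in WT. In the L4 double mutant, C33A11.1 had 8.08 and 8.61 CPM and *ikb-1* had 2.91 and 3.43 CPM. Each gene was also below WT in the other single L4 mutant. *ikb-1* had 6.33 and 6.53 CPM in *nfki-1(cer1)*, and C33A11.1 had 27.0 and 27.7 CPM in *ikb-1(nr2027)*. At L1, C33A11.1 had 70.1 and 89.8 CPM in *nfki-1(cer2)*, against 137 and 143 CPM in WT, and *ikb-1* had 1.50 and 2.60 CPM in *ikb-1(cer9)*, against 45.0 and 47.8 CPM in WT. Sums of 10 marker genes each put these L4 libraries apart. Germ cell markers summed to 2409 to 2523 CPM in *nfki-1(cer1)*, 2253 to 2353 CPM in *ikb-1(nr2027)* and 994 to 1027 CPM in the double mutant, against 321 to 323 CPM in WT. Intestinal markers summed to 9349 to 9651 CPM in *nfki-1(cer1)*, 9418 to 9708 CPM in *ikb-1(nr2027)* and 16209 to 16629 CPM in the double, against 22453 to 23044 CPM in WT. A single gene of this list, *asp-1*, had 16566 and 16238 CPM in WT. Of the 10 intestinal markers, 8 were below WT and 2 above it in each mutant. All 10 germ cell markers and 9 of 10 intestinal markers had counts in L4 WT, the exception being *end-3*. A list of 5 hypodermal markers summed to 439.5 to 458 CPM in *nfki-1(cer1)*, 599 to 630 CPM in *ikb-1(nr2027)* and 1489 to 1583 CPM in double mutants, against 3774 to 4006 CPM in WT. All 5 were below WT in each mutant, but by unlike amounts. *sqt-3* had 203 and 220 CPM in *nfki-1(cer1)*, against 1930 and 2142 CPM in WT. *elt-3* had 24.1 and 24.2 CPM in *nfki-1(cer1)*, against 25.8 and 27.7 CPM in WT.

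The family was a minor part of each library. Without TMM scaling its members summed to 36.2 to 37.9 CPM in *nfki-1(cer1)*, to 37.5 to 40.7 CPM in *ikb-1(nr2027)* and to 56.1 to 63.1 CPM in double mutants, against 73.8 to 82.2 CPM in WT at L4. At L1 they summed to 170 to 203 in *nfki-1(cer2)* and 150 to 168 in *ikb-1(cer9)*, against 167 to 203 in WT. A member was taken as well measured where every file of a group held at least 10 counts. By this measure 15 members were well measured in each single L4 mutant and 14 in the double, against 10 in WT at L4, and at L1 28 were in each mutant, against 27 in WT. In all, 34 members were well measured in some group and 5 in all 7. In bulk samples of whole larvae, fewer cells of a type and less RNA per cell cannot be told apart.

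The 39 genes located in the annotation lie on 6 chromosomes of WBcel235, with 15 members on II and 10 on I. The largest neighbourhood holds 7 members (*ins-24* to *ins-30*) on chromosome I, from 14012369 (start of *ins-28*) to 14037777 (end of *ins-26*), and the next holds 6 (*ins-2* to *ins-6* and *ins-20*) on chromosome II, from 5988524 to 6011321. Annotated exons of 5 members overlap another gene: *ins-13* shares 87 exonic bases with *acdh-2* on the same strand, *ins-37* shares 171 with the snRNA gene F08G2.9 on its own strand and 192 with R05D7.8 on the other, and *ins-10*, *ins-34* and *ins-36* overlap a gene on the opposite strand. Whether the reads were counted by strand is not given in the sources used here, so reads of these genes and their partners cannot be told apart. *ins-13* had 9, 13, 27 and 31 counts in the first L4 files of *nfki-1(cer1)*, *ikb-1(nr2027)*, the double mutant and WT and 0 in all second files, and the cause of this difference was not tested.

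Per kilobase of annotated exon, the leading members of L4 WT were *ins-27* (156 CPM per kb), *ins-17* (39.7), *ins-35* (31.5) and *ins-18* (23.2), followed at a distance by *ins-33* (5.10). *ins-17* promotes dauer formation when overexpressed, *ins-18* opposes DAF-2 signalling, and *ins-35* is an intestinal peptide that favours reproductive growth. In L1 WT the order was *ins-17* (77.2 CPM per kb), *ins-27* (43.3), *ins-30* (32.4), *ins-18* (31.5), *ins-26* (20.9) and *ins-35* (20.2). At L1 *ins-27* differed so much between libraries (4.54 and 22.3 CPM in WT) that its place in this order is not fixed. In L4 WT *ins-27* alone made up 45.8% of the summed CPM of the family. By CPM, the 3 highest members of each group made up 48.4% in *nfki-1(cer1)* larvae, 51.7% in *ikb-1(nr2027)* larvae and 65.6% in double mutants, against 77.995% in L4 WT, and 46.7% to 49.3% at L1, where they were *ins-17*, *ins-30* and *ins-18*.

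**Figure D1:**
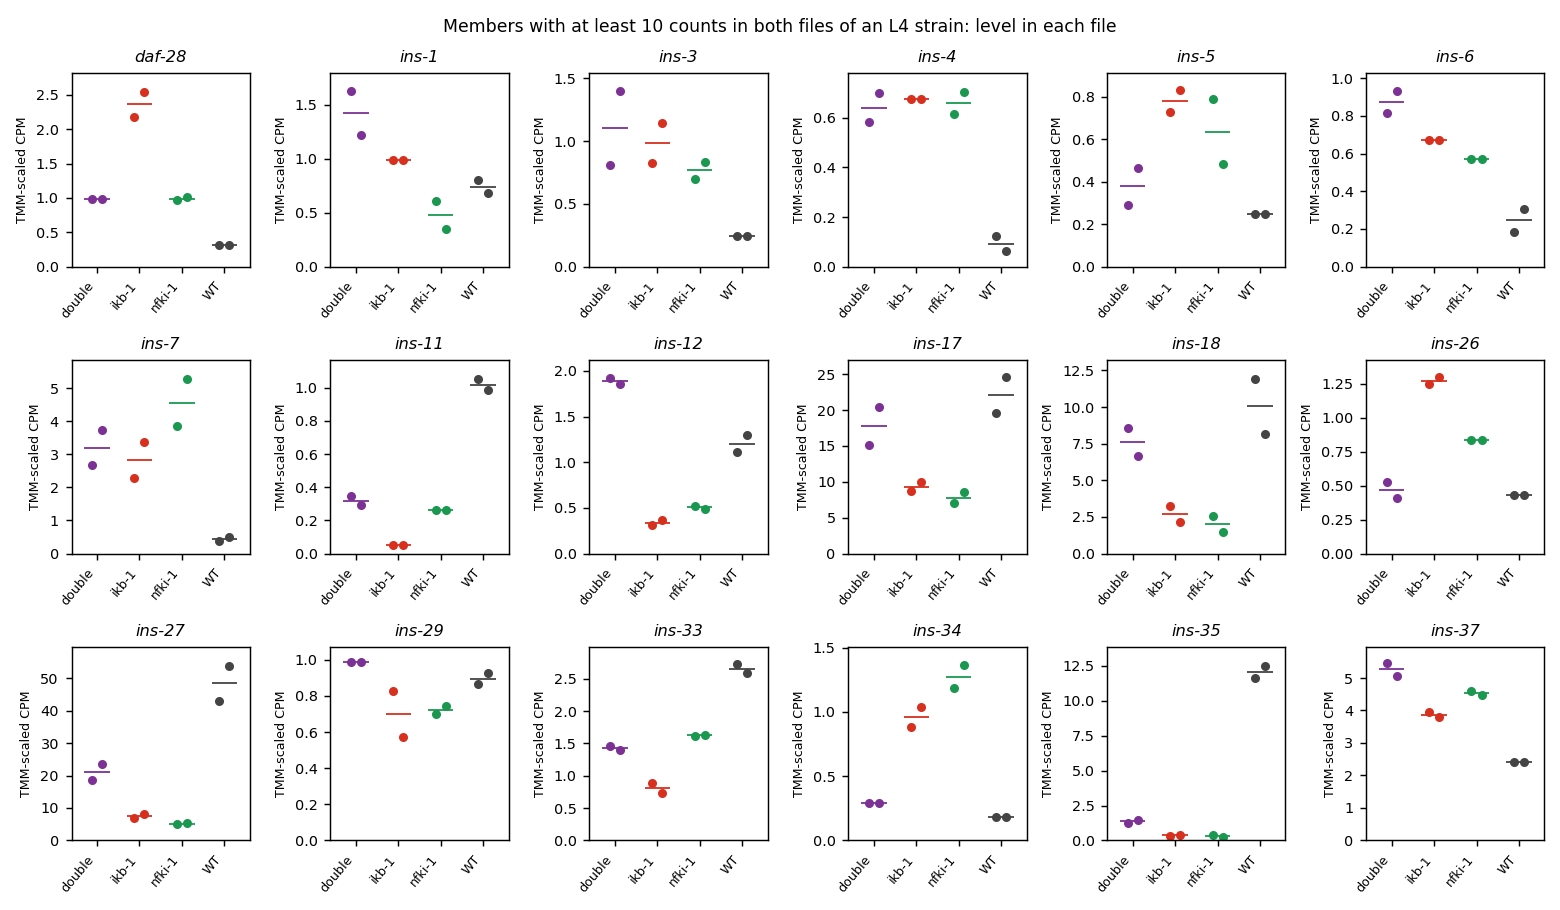
Level of each of the 18 members with at least 10 counts in both files of an L4 strain. Points are TMM-scaled CPM in the 2 files of a strain, bars are their mean, and strains run from the double mutant over *ikb-1(nr2027)* and *nfki-1(cer1)* to WT. *ins-35* and *ins-27* lie low in both single mutants beside WT, while *ins-7* lies above WT in all 3 mutants.

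The first comparison asked which family members differed from WT in *nfki-1(cer1)* L4 larvae. A single member, *ins-35*, passed the test (edgeR quasi-likelihood, Benjamini-Hochberg adjusted p below 0.01, with a 2-unit difference or more on the log2 scale), out of 38 tested, where 2.44% of 21293 genes did. *ins-35*, on chromosome V from 20375536 to 20376302, had 9 and 6 counts in *nfki-1(cer1)*, against 188 and 202 counts in WT. Scaled, that is 0.39 and 0.26 CPM in the mutant and 11.6 and 12.5 CPM in WT. The edgeR log2 fold change was -5.18 (SE 0.54, adjusted p = 0.0071), and the exact binomial 95% interval of the ratio, which covers counting error only, ran from -6.33 to -4.09. Without any one of the 6 L1 libraries, which supply the spread, its log2 fold change lay between -5.23 and -5.18, and the call was lost each time. The share of all genes called also fell below 2.44% in each of these fits, so the loss of calls was not particular to *ins-35*.

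The other abundant L4 members were also at lower levels in *nfki-1(cer1)* without passing the test. *ins-18*, on chromosome I from 8147427 to 8149651, had 58 and 33 counts in the mutant and 193 and 132 counts in WT, or 2.54 and 1.45 CPM against 11.9 and 8.15 CPM. Its log2 fold change was -2.33 (SE 0.32, edgeR adjusted p = 0.0107), just outside the threshold. *ins-17*, on chromosome III from 4476918 to 4477572, had 7.05 and 8.57 CPM in the mutant and 19.6 and 24.6 CPM in WT, a log2 fold change of -1.50 (edgeR adjusted p = 0.0164). *ins-27*, on chromosome I from 14027236 to 14027588, had the largest difference in reads: 5.04 and 5.36 CPM in the mutant and 43.0 and 53.8 CPM in WT. Its log2 fold change was -3.22, but its L1 replicates varied widely and the edgeR adjusted p was 0.134.

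*ins-7*, *daf-28*, *ins-4*, *ins-6* and *ins-3*, known as ligands that activate DAF-2 or promote proliferation, had higher levels than WT at low counts, and none passed the test. *ins-35* and *ins-33*, also known from growth or proliferation, had lower ones. *ins-7*, an agonist of the intestine and neurons on chromosome IV from 9682011 to 9682845, had 88 and 120 counts in *nfki-1(cer1)* and 6 and 8 counts in WT, or 3.86 and 5.27 CPM against 0.37 and 0.49 CPM. The log2 fold change was 3.39 (SE 1.24, edgeR adjusted p = 0.116), and the counting interval ran from 2.31 to 4.75. *daf-28*, an agonist of sensory neurons whose loss promotes dauer entry, had 22 and 23 counts in the mutant and 5 and 5 counts in WT, a log2 fold change of 1.67 (edgeR adjusted p = 0.316). *ins-4*, which acts with *daf-28* and *ins-6* against dauer formation, had 14 and 16 counts in the mutant and 2 and 1 counts in WT. *ins-6* had 13 and 13 counts in the mutant and 3 and 5 counts in WT, and its counting interval (-0.49 to 3.28) included no difference. *ins-3*, known to promote germline proliferation in larvae, had 16 and 19 counts in the mutant and 4 and 4 counts in WT, a log2 fold change of 1.63 (edgeR adjusted p = 0.061).

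Over all 38 tested members, 13 were at or above 1 and 11 at or below -1 in log2 fold change in *nfki-1(cer1)*, against 26.1% and 22.8% of all genes tested. The median was 0 for the members and 0 for all genes, and -0.93 for 10 members against -0.23 for all genes where every library held at least 10 counts. At an unadjusted p below 0.05 there were 5 members higher and 4 lower in the mutant, where 17.1% and 15.9% of genes were. *ins-34*, on chromosome IV, had 27 and 31 counts in the mutant and 3 and 3 counts in WT, the third largest increase after *ins-7* and *ins-4* among members well measured in either strain, with the limit that its exons overlap *nkcc-1* on the opposite strand. *ins-19* had 11 and 9 counts in the mutant and none in WT, at least 2.37-fold higher against a floor of 3 counts.

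**Figure D2:**
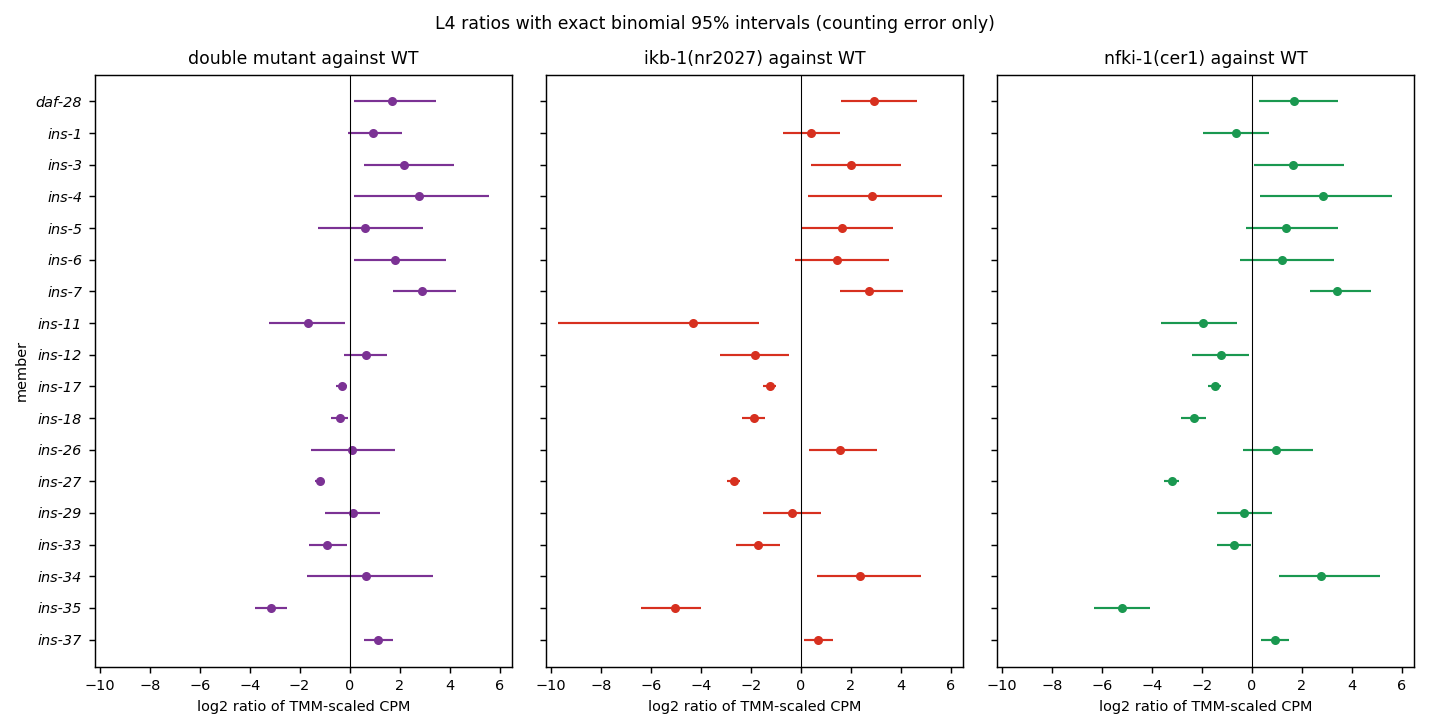
Log2 ratio of TMM-scaled CPM of each L4 mutant to WT for the 18 members well measured in some L4 strain (double mutant, *ikb-1(nr2027)* and *nfki-1(cer1)* from left to right). Bars are exact binomial 95% intervals and cover counting error only; *ins-35* stands at -3.14, -5.05 and -5.19.

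In *ikb-1(nr2027)* L4 larvae the same gene, *ins-35*, was the member called, out of 38 tested, where 0.958% of genes passed. It had 6 and 8 counts in the mutant and 188 and 202 counts in WT, or 0.31 and 0.42 CPM against 11.6 and 12.5 CPM. The log2 fold change was -5.04 (SE 0.54, edgeR adjusted p = 0.0094), with a counting interval from -6.39 to -3.98. This call rested on a narrow margin. It was lost without any one L1 library, where the log2 fold change lay between -5.09 and -5.04, and without either file of *ikb-1(nr2027)*. It was also lost with the rounded mean of each L4 pair in place of the sum, where the edgeR adjusted p was 0.0108. The share of all genes called was below 0.958% in each of these fits, so the loss of calls was not particular to *ins-35*. Both single mutants were compared with the same WT files, so the values of *ins-35* in the 2 mutants are given side by side and are not independent.

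*ins-18* had 63 and 42 counts in *ikb-1(nr2027)* and 193 and 132 counts in WT, a log2 fold change of -1.88 (SE 0.32, edgeR adjusted p = 0.0218). *ins-17* had 8.71 and 9.96 CPM in the mutant and 19.6 and 24.6 CPM in WT, a log2 fold change of -1.24 (edgeR adjusted p = 0.0333). *ins-27* had 6.79 and 8.20 CPM in the mutant and 43.0 and 53.8 CPM in WT, a log2 fold change of -2.69 (edgeR adjusted p = 0.204). None of these 3 genes passed the threshold. *ins-11*, an intestinal peptide that acts on neurons in learned pathogen avoidance, had 1 and 1 counts in the mutant and 17 and 16 counts in WT, with a counting interval of the log2 ratio from -9.72 to -1.67. *ins-33*, known with *ins-3* from larval germline proliferation, had 17 and 14 counts in the mutant and 44 and 42 counts in WT, a log2 fold change of -1.72 (edgeR adjusted p = 0.311). The pair *ins-3* and *ins-33* thus lay on opposite sides of WT.

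Among the agonists, *daf-28* had its highest L4 level in this strain, 42 and 49 counts against 5 and 5 in WT, or 2.18 and 2.54 CPM against 0.31 and 0.31 CPM. The log2 fold change was 2.92 (SE 1.03, edgeR adjusted p = 0.122), and the counting interval ran from 1.62 to 4.64. *ins-7* had 44 and 65 counts in the mutant and 6 and 8 counts in WT, a log2 fold change of 2.70 (edgeR adjusted p = 0.199). *ins-4* had 13 and 13 counts in the mutant and 2 and 1 counts in WT. *ins-3* had 16 and 22 counts in the mutant and 4 and 4 counts in WT, a log2 fold change of 1.99 (edgeR adjusted p = 0.0441). Over the 38 members, 18 were at or above 1 and 12 at or below -1 in log2 fold change, against 24.3% and 21.2% of all genes. The median was 0.77 for the members and 0 for all genes. It was 0 for the members without the second file of *ikb-1(nr2027)*, and -0.79 for 10 members against -0.22 for all genes where every library held at least 10 counts. In this mutant 3 members were higher and 4 lower at an unadjusted p below 0.05, where 16% and 13.9% of genes were.

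In the double mutant no member was called by edgeR out of 38, and 0% of all genes were; DESeq2 called *ins-35*, where it called 2.00% of genes, and 3 members had an unadjusted edgeR p below 0.05, where 13.3% of genes did. *ins-35* had 22 and 25 counts in the double mutant and 188 and 202 counts in WT, or 1.28 and 1.45 CPM against 11.6 and 12.5 CPM. Its log2 fold change was -3.14 (SE 0.48, edgeR adjusted p = 0.0745). *ins-27* had 18.6 and 23.5 CPM in the double mutant and 43.0 and 53.8 CPM in WT, a log2 fold change of -1.20 (edgeR adjusted p = 0.765). *ins-18* had 8.61 and 6.63 CPM in the double mutant and 11.9 and 8.15 CPM in WT, and *ins-17* had 15.2 and 20.4 CPM in the double mutant and 19.6 and 24.6 CPM in WT. Their log2 fold changes were -0.40 for *ins-18* and -0.31 for *ins-17* (edgeR adjusted p = 0.677 and 0.679). *ins-7* had 2.67 and 3.72 CPM in the double mutant and 0.37 and 0.49 CPM in WT, a log2 fold change of 2.88 (edgeR adjusted p = 0.392). *ins-3* had 14 and 24 counts in the double mutant and 4 and 4 in WT, a log2 fold change of 2.15 (edgeR adjusted p = 0.121). Of the 38 members, 16 were at or above 1 and 5 at or below -1 in log2 fold change, against 18.1% and 10.4% of genes. The 38 include sparse members: *ins-9* and *ins-32* each had 1 and 1 counts in the double mutant and 0 and 0 in WT. The median was 0.63 for the members and 0 for all genes. Where every library held at least 10 counts, it was 0.13 for 10 members and -0.12 for all genes.

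The double mutant was also set against each single mutant. No member was called in either comparison, and 0% of genes were; 4 members had an unadjusted edgeR p below 0.05 against *nfki-1(cer1)*, where 20.9% of genes did, and 5 against *ikb-1(nr2027)*, where 17% did. *ins-35* was higher in the double mutant at 1.28 and 1.45 CPM, against 0.39 and 0.26 CPM in *nfki-1(cer1)*, a log2 fold change of 2.05 with a counting interval from 0.79 to 3.36 (edgeR adjusted p = 0.0954). *ins-18* had 8.61 and 6.63 CPM in the double mutant and 2.54 and 1.45 CPM in *nfki-1(cer1)*, a log2 fold change of 1.93 (edgeR adjusted p = 0.0461). Against *ikb-1(nr2027)*, the log2 fold changes of *ins-35* and *ins-18* were 1.91 and 1.48 (edgeR adjusted p = 0.158 and 0.100). *ins-35*, *ins-27*, *ins-18* and *ins-17* thus had levels in the double mutant between those of the single mutants and WT, as did the summed germ cell and intestinal markers given above, whose part in these values was not tested.

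None of the following members passed the test in any L4 mutant. *ins-37* had 4.60 and 4.48 CPM in *nfki-1(cer1)*, 3.94 and 3.79 CPM in *ikb-1(nr2027)* and 5.47 and 5.06 CPM in double mutants, against 2.41 and 2.41 CPM in WT. Its level was above WT in all 3 mutants, with log2 fold changes of 0.91 for *nfki-1(cer1)*, 0.68 for *ikb-1(nr2027)* and 1.13 for double mutants. *ins-1* had 0.61 and 0.35 CPM in *nfki-1(cer1)*, 0.99 and 0.99 CPM in *ikb-1(nr2027)* and 1.63 and 1.22 CPM in double mutants, against 0.80 and 0.68 CPM in WT, and this antagonist of DAF-2 was above WT in double mutants and *ikb-1(nr2027)* and below it in *nfki-1(cer1)*. Its counting intervals all included no difference: -1.94 to 0.69 in *nfki-1(cer1)*, -0.71 to 1.59 in *ikb-1(nr2027)* and -0.07 to 2.10 in double mutants. *ins-34* had 17 and 20 counts in *ikb-1(nr2027)* and 5 and 5 counts in double mutants, against 3 and 3 counts in WT. *ins-11* had 6 and 6 counts in *nfki-1(cer1)* and 6 and 5 counts in double mutants, against 17 and 16 counts in WT. *ins-33* had 37 and 37 counts in *nfki-1(cer1)* and 25 and 24 counts in double mutants, against 44 and 42 counts in WT, so that levels in all 3 mutants lay below WT for both *ins-11* and *ins-33*. Of the agonists in double mutants, *daf-28* had 17 and 17 counts, against 5 and 5 in WT. *ins-4* had 10 and 12 counts in double mutants, against 2 and 1 in WT, and *ins-6* had 14 and 16, against 3 and 5. *ins-6* had 13 and 13 counts in *ikb-1(nr2027)* as well. *ins-10* and *ins-14* had at most 6 counts in any L4 file.

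Members of the chromosome I neighbourhood did not share 1 direction at L4. Of its 7 genes, *ins-27* was at lower levels in all 3 mutants than in WT, while *ins-26* had 0.83 and 0.83 CPM in *nfki-1(cer1)*, 1.24 and 1.30 CPM in *ikb-1(nr2027)* and 0.52 and 0.41 CPM in the double mutant, against 0.43 and 0.43 CPM in WT. *ins-28* had 8 and 8 counts in *nfki-1(cer1)*, 5 and 12 counts in *ikb-1(nr2027)* and 7 and 13 counts in double mutants, against 0 and 2 counts in WT. *ins-24*, *ins-25* and *ins-30* had at most 10 counts in any L4 file. *ins-29* had between 11 and 17 counts in the mutants, against 14 and 15 counts in WT. In the chromosome II neighbourhood, all 6 genes had log2 fold changes above 0 in all 3 L4 mutants, from 0.47 (*ins-20* in *ikb-1(nr2027)*) to 2.83 (*ins-4* in the same mutant). They held at most 24 counts in any L4 file and at most 5 in WT, the 3 comparisons share the WT files, and none of the 6 passed the test.

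Genes that make the peptides or read them were examined as lists. Over 10 genes of the insulin receptor pathway, the median log2 fold change against WT was 0.99 for *nfki-1(cer1)*, 0.82 for *ikb-1(nr2027)* and -0.29 for the double mutant, where all genes tested had a median of 0. Where every library held at least 10 counts, the medians of all genes were -0.23, -0.22 and -0.12 in the same order. Of 10 genes of peptide processing and release, such as the proprotein convertase *egl-3*, 9 had lower levels than WT for *nfki-1(cer1)* and 9 for *ikb-1(nr2027)*, with median log2 fold changes of -1.02 and -0.89. All 10 did for double mutants, with a median of -0.44. Neuronal markers summed to 304 to 324 CPM in *nfki-1(cer1)*, 322 to 343 CPM in *ikb-1(nr2027)* and 425 to 455 CPM in the double mutant, against 567 to 602 CPM in WT. All 10 had counts, and their part in the levels of the neuronal ligands was not tested. All 10 neuronal markers were below WT in the double mutant, 8 in *ikb-1(nr2027)* and 9 in *nfki-1(cer1)*. *unc-104* was higher in both single mutants, at 39.8 to 42.0 CPM, against 33.5 to 34.5 CPM in WT. The neuronal and processing lists share *egl-21*, so their results are not separate. This gene had 264 and 269 CPM in WT and from 96.6 to 197 CPM in the mutants, a large part of the neuronal sums.

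No member was called at L1 in *nfki-1(cer2)* out of 35 tested (edgeR, adjusted p below 0.01), where 0% of 19183 genes were, and none had an unadjusted p below 0.05, where 0.912% of genes did. No member was called in *ikb-1(cer9)* either, where 0% of genes were, and 2 members, *ins-33* and *ins-29*, had an unadjusted p below 0.05, where 1.22% of genes did. DESeq2 called 0 members in each comparison. *ins-35* had 9.62 and 10.4 CPM in *nfki-1(cer2)* and 10.6 and 6.32 CPM in *ikb-1(cer9)*, against 7.60 and 7.80 CPM in WT, and the log2 fold changes were 0.38 (SE 0.29) and 0.13 (SE 0.29). *ins-17* had 44.8 and 49.0 CPM in *nfki-1(cer2)* and 40.7 and 43.8 CPM in *ikb-1(cer9)*, against 43.5 and 42.6 CPM in WT. *ins-18* had 16.5 and 15.2 CPM in *nfki-1(cer2)* and 12.1 and 13.8 CPM in *ikb-1(cer9)*, against 14.5 and 12.7 CPM in WT. These genes, at lower levels in the L4 single mutants, were thus near WT at L1. A test of the difference between stages (edgeR interaction of mutant and stage) called no member at the L4 threshold, where 0.047% of genes were called for *nfki-1* and 0% for *ikb-1*. At an adjusted p below 0.05 the *nfki-1* effect was lower at L4 for 3 members (*ins-17*, *ins-18* and *ins-35*), where 1.52% of genes were lower and 5% higher. The *ikb-1* effect was lower at L4 for *ins-35*, where 0.676% of genes were lower and 3.75% higher. No member was higher for either gene.

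*ins-33* had the largest difference at L1. It had 15 and 39 counts in *nfki-1(cer2)* and 3 and 6 counts in *ikb-1(cer9)*, against 27 and 54 counts in WT, and the libraries of *ikb-1(cer9)* lay below all others. Its log2 fold change in *ikb-1(cer9)* was -3.18 (SE 0.86, below 0.05 unadjusted in edgeR), which did not pass the correction over all genes. *ins-29* had 80 and 121 counts in *ikb-1(cer9)* and 242 and 155 counts in WT, a log2 fold change of -0.97 (SE 0.38, likewise). *daf-28* had 2.62 and 1.79 CPM in *ikb-1(cer9)* and 4.10 and 2.36 CPM in *nfki-1(cer2)*, against 5.08 and 1.53 CPM in WT, and the 3 strains overlapped. *ins-1*, an antagonist of DAF-2, had 8.91 and 10.6 CPM in *ikb-1(cer9)* and 12.8 and 7.78 CPM in *nfki-1(cer2)*, against 12.2 and 9.12 CPM in WT, again with overlap. Other abundant L1 members were not called either. *ins-30* had 1198 and 1255 counts in *nfki-1(cer2)* and 1262 and 1098 counts in *ikb-1(cer9)*, against 1353 and 1443 counts in WT, and once scaled both libraries of *ikb-1(cer9)* lay below WT. *ins-3* had 701 and 508 counts in *nfki-1(cer2)* and 570 and 556 counts in *ikb-1(cer9)*, against 597 and 513 counts in WT. *ins-26* had 10.7 and 5.65 CPM in *nfki-1(cer2)* and 8.92 and 4.60 CPM in *ikb-1(cer9)*, against 13.9 and 5.29 CPM in WT. Strains overlapped for *ins-3* and *ins-26*. *ins-10* had 279 and 159 counts in *nfki-1(cer2)* and 139 and 150 counts in *ikb-1(cer9)*, against 256 and 91 counts in WT. *ins-6* had 2.73 and 1.62 CPM in *nfki-1(cer2)* and 2.50 and 0.90 CPM in *ikb-1(cer9)*, against 3.65 and 0.91 CPM in WT. Strains overlapped for these 2 genes as well. *ins-14*, *ins-24* and *ins-28* ran from 3.29 to 6.08 CPM in the mutants and from 3.33 to 7.63 CPM in WT. *ins-7*, *ins-34* and *ins-37* had 1 to 28 counts in any L1 library. The median log2 fold change of the 35 members was -0.35 in *ikb-1(cer9)* and -0.10 in *nfki-1(cer2)*, against -0.02 and 0.00 for all genes. These medians depended on single WT libraries: they were 0.02 and 0.20 without number 1 of L1 WT, and -0.37 and -0.18 without number 2. With at least 10 counts in every library they were -0.24 and -0.05 for 23 members.

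**Figure D3:**
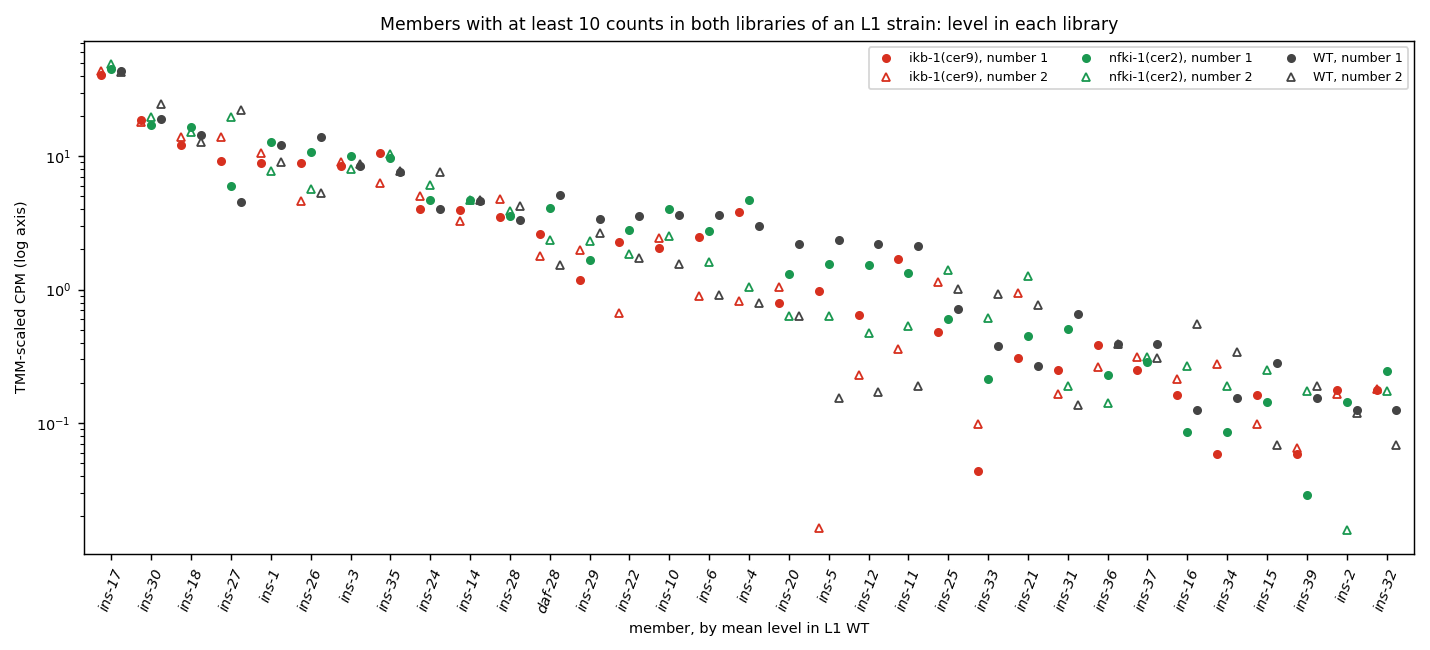
TMM-scaled CPM (log axis) of the 33 members with at least 10 counts in both libraries of an L1 strain, ordered by their mean in WT. Each member has 6 libraries, *ikb-1(cer9)*, *nfki-1(cer2)* and WT from left to right, with replicate number 1 as filled circles and number 2 as open triangles; *ins-4*, *ins-5*, *ins-11* and *ins-12* differ more by replicate number than by strain.

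The spread between L1 libraries was itself uneven over the family. Among 32 members with at least 60 counts over the 6 libraries, 10 were higher in number 1 than in number 2 in all 3 strains and 8 were lower in all 3, where 24.8% and 28.5% of 18149 genes were. At a fold of at least 2 in each strain, 4 members were higher in number 1 (*ins-4*, *ins-5*, *ins-11* and *ins-12*), where 2.23% of genes were, and 3 were lower (*ins-21*, *ins-33* and *ins-34*), where 1.58% were. *ins-4* had 4.70 and 1.04 CPM in numbers 1 and 2 of *nfki-1(cer2)*, 3.79 and 0.82 CPM in those of *ikb-1(cer9)* and 2.98 and 0.79 CPM in those of WT. *ins-11* had 1.32 and 0.54 CPM in *nfki-1(cer2)*, 1.71 and 0.36 CPM in *ikb-1(cer9)* and 2.13 and 0.19 CPM in WT. *ins-27* ran the other way, with 6.03 and 19.7 CPM in *nfki-1(cer2)*, 9.19 and 13.8 CPM in *ikb-1(cer9)* and 4.54 and 22.3 CPM in WT. The labels do not say what a replicate number shares between strains. This spread is large beside the differences between strains, and it also enters the L4 tests of these genes.

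The last comparison set L4 WT against L1 WT. Of 38 members, 8 were called, where 17.9% of genes were. At L4, 7 were lower (*ins-1*, *ins-3*, *ins-10*, *ins-14*, *ins-24*, *ins-28* and *ins-30*), where 9.67% of genes were, and *ins-37* was higher, where 8.25% were. Of those lower, all but *ins-1* had at most 5 counts in each L4 WT file and were well measured in WT at L1 alone. With at least 10 counts in every library, 2 of 10 members were called, where 18.1% of genes were. *ins-30* had 2 and 4 counts at L4 and 1353 and 1443 counts at L1. Its log2 fold change was -6.86 (SE 0.44, edgeR adjusted p = 0.00046). *ins-3* had 0.25 and 0.25 CPM at L4 and 8.39 and 8.79 CPM at L1, a log2 fold change of -5.11 (edgeR adjusted p = 0.00081). *ins-1* had 0.80 and 0.68 CPM at L4 and 12.2 and 9.12 CPM at L1, a log2 fold change of -3.84 (edgeR adjusted p = 0.0026). *ins-14*, *ins-24* and *ins-28* had at most 5 counts in the L4 WT files and 237 to 445 counts in the L1 WT libraries, with log2 fold changes of -4.41, -6.50 and -5.88. At so few L4 counts these values are loose: without 1 L4 file they ran from -5.27 to -3.96 for *ins-14*, from -6.56 to -6.50 for *ins-24* and from -10.64 to -4.97 for *ins-28*.

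*ins-10* had 0 and 2 counts at L4 and 256 and 91 counts at L1, and its call (edgeR log2 fold change -5.33, adjusted p = 0.0069) was lost without number 1 of L1 WT, without any one of the 4 L1 mutant libraries and without the first L4 WT file, where the edgeR adjusted p reached 0.0185. *ins-37* had 39 and 39 counts at L4 and 28 and 18 counts at L1, or 2.41 and 2.41 CPM against 0.39 and 0.31 CPM, a log2 fold change of 2.77 (SE 0.42, edgeR adjusted p = 0.0037). That call was lost without either L1 WT library (highest edgeR adjusted p 0.0157), and the gene overlaps 2 noncoding genes. *ins-35* and *ins-18*, by contrast with the called genes, were at 11.6 and 12.5 CPM and 11.9 and 8.15 CPM at L4, against 7.60 and 7.80 CPM and 14.5 and 12.7 CPM at L1, and did not pass the test. *daf-28* had 0.31 and 0.31 CPM at L4 and 5.08 and 1.53 CPM at L1, a log2 fold change of -3.41 (edgeR adjusted p = 0.0314). *ins-7* ran the other way without passing, at 0.37 and 0.49 CPM at L4 and 0.13 and 0.02 CPM at L1.

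**Figure D4:**
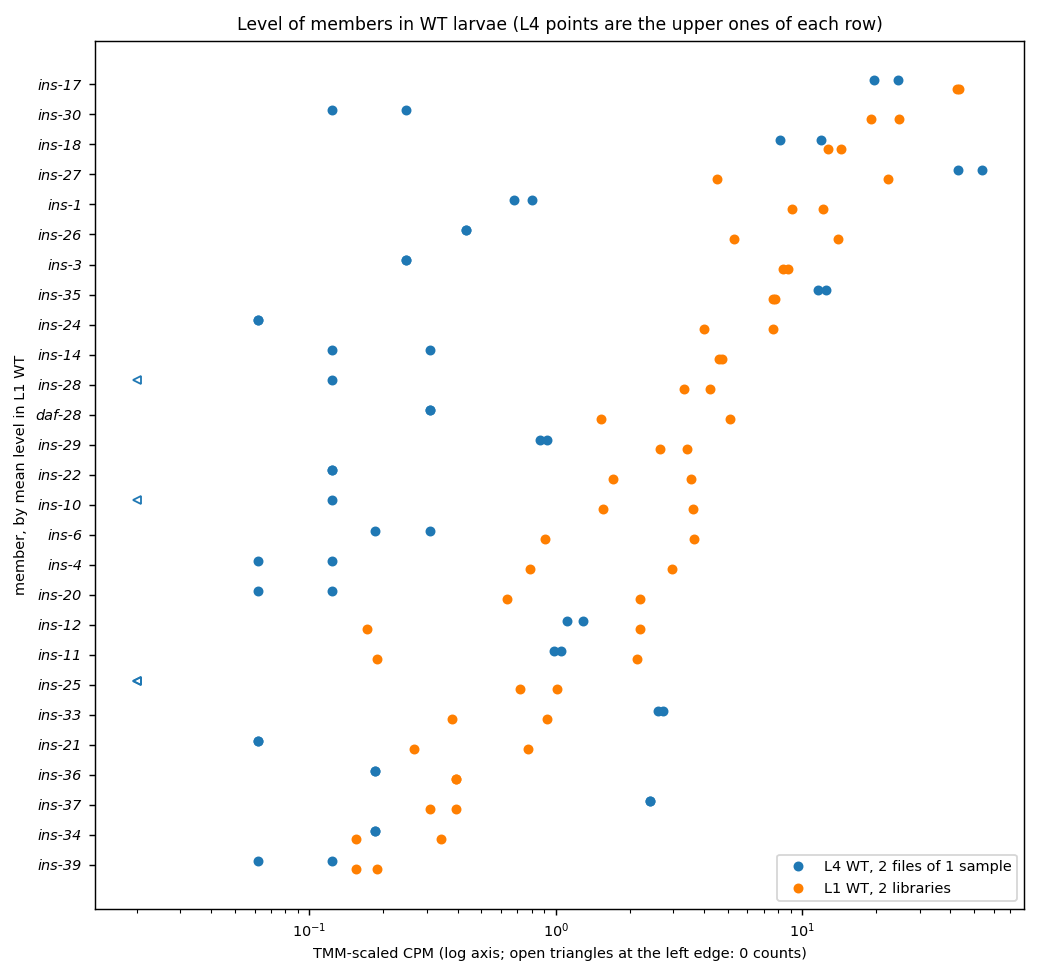
TMM-scaled CPM (log axis) of the 27 members well measured in L4 WT or L1 WT. In each row the upper points are the 2 files of L4 WT and the lower points the 2 libraries of L1 WT; most members lie to the left at L4, while *ins-27*, *ins-33*, *ins-35* and *ins-37* lie to the right.

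The median log2 fold change of the 38 members was -3.30 between L4 and L1 WT, against -0.59 for all genes tested, but many of these members passed the filter through their L1 counts alone. Among genes with at least 10 counts in every library, the medians were -0.84 for 10 members and -0.06 for all genes. With library totals alone in place of TMM, the medians of the 38 members and of all genes tested were -3.94 and -1.16. Neuronal markers summed to 567 to 602 CPM in L4 WT and 1590 to 1755 CPM in L1 WT, intestinal markers to 22453 to 23044 and 5728 to 9483 CPM, and their part in the difference was not tested. At L4, 9 of 10 neuronal markers were lower and 9 of 10 intestinal markers higher. *asp-1* alone had 16566 and 16238 CPM in L4 WT and 3366 and 6252 CPM in L1 WT. Depth differed with stage as well, and stage, depth and feeding state cannot be told apart. *ins-25* had 0 counts in both L4 WT files and 51 and 59 counts in L1 WT, at least 4.66-fold lower at L4 against a floor of 3 counts per L4 file. Of the remaining members, *ins-8* and *ins-38* had at most 2 counts in any file and were not tested. *ins-9*, *ins-19* and *ins-23* were tested only together with L4, since they were too sparse at L1.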

How the data were processed

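Whole-larva RNA was sequenced as single-end reads. According to the authors, reads were trimmed with Trim Galore, mapped with Bowtie2 (WBcel235) and assigned to genes by HTSeq; the deposited files hold whole-number counts without normalization. The sample labels also describe cell sorting and PCR amplification, which the methods do not mention. Rows naming no gene (13.4% to 20.0% of reads) were left out.

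The members are all rows named *ins-* and a number, plus *daf-28*; 39 were located in the Ensembl release 115 annotation of WBcel235. Members, lists and tests were chosen with earlier results of these data known. Genes were kept with edgeR's filterByExpr (minimum count 10), scaled by TMM and tested with edgeR 4.0.16 in R 4.3.3 (quasi-likelihood, Benjamini-Hochberg over all genes tested). L4 and stage comparisons used 10 samples (each L4 pair of files summed, 6 L1 libraries), called at adjusted p below 0.01 and log2 fold change of at least 2; L1 comparisons used 6 libraries at adjusted p below 0.01. Because the paired files appear to count the same fragments, intervals rest on the rounded mean of each pair, a choice made after the counts were seen; intervals from summed counts would be narrower. The interaction of mutant and stage (adjusted p below 0.05), the rounded-mean fit and the description by replicate number were also chosen after the data were seen. Named genes are members of known role, the 10 highest per kilobase, every called member and the 3 largest L4 changes each way among members well measured in 1 of the 2 strains compared; others, chosen after their values were seen, illustrate neighbourhoods, sparse members and L1 differences. Likeness of patterns is not given, because the 7 groups fall into 2 stages. Scripts were tested on simulated data. DESeq2 1.42.0 was an alternative. Other steps ran in Python 3.11.15 (scipy 1.17.1, pandas 2.3.3, numpy 2.4.6), with figures by matplotlib 3.10.9.

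Alternatives were other scalings, filters, thresholds and tools, L4 files as separate libraries, a replicate block and leaving out each file. Floors are 3 counts per file, and intervals and floors cover counting error only. Calls for single genes of the pathway and processing lists are not reported here.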

Additional observations from a re-analysis of the deposited data

Results flagged for a closer look

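The effect of an *nfki-1* mutation was compared between stages in the fit of both stages (edgeR interaction term, adjusted p below 0.05, L4 effect minus L1 effect). The difference was -5.57 on the log2 scale for *ins-35* (SE 0.61, adjusted p = 0.0147), -2.55 for *ins-18* (SE 0.38, adjusted p = 0.0232) and -1.62 for *ins-17* (SE 0.30, adjusted p = 0.0369). For an *ikb-1* mutation it was -5.18 for *ins-35* (SE 0.61, adjusted p = 0.0183). In each case the L4 mutant lay below its WT and the L1 mutant near its WT. None of these differences passed an adjusted p below 0.01, the alleles differ between stages, and the L4 spread is that of the L1 replicates, so allele and stage cannot be told apart. At this threshold 1.52% of genes were lower and 5% higher for *nfki-1*, against 3 and 0 of 38 members. For *ikb-1*, 0.676% of genes were lower and 3.75% higher, against 1 and 0 of 38 members.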

How the results depend on the processing

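The count of members called in *nfki-1(cer1)* at L4 was 1 of 38. It was 2 without a filter (of 40; 4.0% of all genes), with at least 10 counts in every library (of 10; 6.26%), with DESeq2 (8.51%) and with a replicate block (7.72%), 6 with L4 files as separate libraries (of 21; 18.5%), 3 at adjusted p below 0.05, and 0 to 2 with 1 file left out (0 without any single L1 library). In *ikb-1(nr2027)* it was 1, and became 8 with L4 files as separate libraries (15.4% of genes), 0 with the rounded mean of each pair, 4 at adjusted p below 0.05 and 0 to 1 with 1 file left out (0 without any single L1 library or either of its own files). In the double mutant it was 0, and became 1 with DESeq2 (2.00% of genes) and 5 with L4 files as separate libraries (8.27%). Between stages in WT it was 8 of 38 (17.9% of genes), and became 2 of 10 with at least 10 counts in every library (18.1%), 13 with DESeq2 (23.1%), 16 with a replicate block (24.5%), 15 at adjusted p below 0.05 and 6 to 9 with 1 file left out. Leaving out a library leaves fewer samples for the spread, and separate L4 files add samples that are not independent. The cause of the other shifts was not tested. Without any single L1 library, the share of all genes called also fell in both single mutants at L4. For the counts at adjusted p below 0.05, 9.52% of all genes passed above WT in *nfki-1(cer1)* and 5.48% below it, against 0 and 3 of 38 members. In *ikb-1(nr2027)* these shares were 7.48% and 2.94%, against 1 and 3 members. Between stages, 21.1% passed with more at L4 and 26.6% with less, against 1 and 14 members. With the rounded mean, 0.70% of genes were called in *ikb-1(nr2027)*. The L1 counts were 0 in every alternative run. Replicate numbers are not said to mark a shared culture, so the block is given here only.

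All 48 pairs of a named gene and a comparison followed here lay 1 unit or more from 0 on the log2 scale in the main fit. In each, the gene was well measured in either group compared. No fold change reversed in 1054 alternative values. Such a reversal was unlikely from the start, because the pairs were picked for their size and the alternatives reuse the same counts. Of these values, 24 lost and 41 gained a call. With library totals in place of TMM, L4 log2 fold changes against WT were higher by 0.47 for *nfki-1(cer1)*, 0.41 for *ikb-1(nr2027)* and 0.19 for double mutants. Depth limits the family most at L4, where 10 to 15 of 40 members were well measured; with minimums of 5 and 20 counts, 37 and 28 members were well measured in some group, against 34.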
